A study of Homo sapiens with 12 samples.

Results

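The genes described here are the collagens, taken as every gene in the count files whose symbol is COL, a number, A and a number. That rule found 44 of the 19923 genes counted. The libraries were made from polyadenylated RNA of the established human neuroblastoma lines SK-N-BE2 and NGP, which carry amplified MYCN and are given as wild type in the labels. Cells of each line were kept for 6 days with STM2457, an inhibitor of the RNA methyltransferase METTL3, or with DMSO, its solvent control. The dose was 12 µM in SK-N-BE2 and 1 µM in NGP, with 3 replicates in each of 4 groups and so 12 libraries. Cell line and dose changed together between the lines and cannot be told apart. The file headers also group the libraries by line, so any batch difference cannot be told apart from line either.

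Collagens are secreted or membrane proteins in which 3 chains wind into a triple helix built from repeats that begin with glycine. Fibrillar collagens assemble into the fibrils of connective tissue. Network collagens form meshes, among them the type IV sheet of basement membranes. Smaller classes coat fibrils, form beaded filaments or span the cell membrane. In neuroblastoma tumours fibrillar collagen is a product of the Schwann cell and fibroblast stroma, and tumour cells in a mesenchymal state express more of it than cells in the adrenergic state. METTL3 places N6-methyladenosine (m6A) on messenger RNA, mostly where GGAC or a close relative occurs, and the mark is best known for shortening the life of the transcripts that carry it.

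Levels are given as CPM, a gene's reads relative to all counted reads of its library after TMM scaling, and genes are called where the adjusted p is under 0.05. Depth was 47242379 to 58159937 counted reads per library. The NGP DMSO library of replicate 1 stood apart from the other NGP DMSO libraries, with a chi-square of 97.0 and 63.5 per degree of freedom against replicates 2 and 3, which differed from each other by 11.4. METTL3 itself rose by 0.52 on the log2 scale in SK-N-BE2 and by 0.92 in NGP (adjusted p = 0.000106 and 0.0003, edgeR quasi-likelihood test). Among the adrenergic neuroblastoma markers, TH, the first enzyme of catecholamine synthesis, was near 0 in NGP (mean 0.512 CPM with DMSO) and at 234 CPM in SK-N-BE2. Read sums of 10 fibroblast or mesenchymal markers went in SK-N-BE2 from 544.8 to 579 CPM with DMSO to 743 to 808 CPM with STM2457, and in NGP from 338 to 389 CPM to 626 to 694 CPM, so they moved with the treatment in both lines. In SK-N-BE2 6 of 8 tested rose and 1 fell, where 26.9% of all genes tested rose and 27.8% fell. The 1 that fell was ACTA2, from 11.4 CPM with DMSO to 2.40 CPM with STM2457 (log2 -2.28, SE 0.18). In NGP 5 of 8 rose, against 19.4% and 22.2%. Most of the sums came from THY1 (341 and 435 CPM with DMSO and STM2457) and FBLN1 (101 and 163 CPM) in SK-N-BE2. In NGP they came mostly from PDGFRA (132 and 194 CPM), FBLN1 (106 and 216 CPM), THY1 (69.9 and 64.6 CPM) and PDGFRB (29.6 and 141 CPM). THY1, PDGFRA and ACTA2 share 10.7%, 16.1% and 30.8% of their exon length with other annotated genes and are uncertain. Other members were near 0: FAP was at 0.0127 CPM or less in every group, TWIST2 at 0.456 CPM or less, and PRRX1 at 0.0268 CPM in SK-N-BE2 with DMSO but 15.7 CPM in NGP with DMSO. Sums of 6 endothelial markers were 17.0 to 22.8 and 12.6 to 14.7 CPM in SK-N-BE2 and 0.430 to 1.23 and 3.47 to 5.44 CPM in NGP, with DMSO and STM2457 respectively, and sums of the 6 Schwann cell and 5 immune markers stayed below 10 CPM in every library. The part of these shifts in the collagen results was not tested, and in bulk RNA a change in the share of cells of one kind and a change in RNA per cell cannot be told apart.

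Because the target of the drug writes m6A in GGAC contexts, the coding sequences of the collagens are shown first. Glycine codons of the form GGA followed by the CC of a proline codon spell GGACC, and the 44 coding sequences held a median of 5.93 GGACC per kb, against 1.25 over 18448 coding genes (canonical transcripts of GENCODE 44, GRCh38, with at least 300 coding bases, sense strand). GGACC was denser than the genome median in 43 collagens and denser than in 95% of genes in 37. For GGACT the medians were 1.77 and 0.980 per kb, and for GGACA 2.00 and 1.42. The collagen coding sequences were also richer in G and C (median 59.5% against 52.9%), and the densities were not adjusted for this. By class, the GGACC median was 7.69 per kb in the network collagens, 5.54 in the fibrillar and 2.62 in the beaded filament collagens. The 120-base coding stretches with the most matches to any of these strings in COL3A1, COL1A1 and COL4A1 are printed 5′ to 3′, with the matches in capitals. The COL3A1 stretch lies in exons 46 to 47 (chr2:189007888-189008103, plus strand), the COL1A1 stretch in exons 3 to 5 (chr17:50199250-50199561, minus strand) and the COL4A1 stretch in exons 3 to 5 (chr13:110212613-110213994, minus strand), with introns left out.
COL3A1: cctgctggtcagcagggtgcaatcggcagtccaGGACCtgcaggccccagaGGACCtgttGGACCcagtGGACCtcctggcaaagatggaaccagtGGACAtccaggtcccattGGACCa
COL1A1: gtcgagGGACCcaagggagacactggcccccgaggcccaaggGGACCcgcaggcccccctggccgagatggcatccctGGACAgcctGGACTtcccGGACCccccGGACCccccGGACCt
COL4A1: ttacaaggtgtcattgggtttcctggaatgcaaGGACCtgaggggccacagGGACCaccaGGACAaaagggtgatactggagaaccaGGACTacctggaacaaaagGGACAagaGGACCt
These stretches hold 6, 7 and 6 matches. A match is a string of letters: m6A was not measured in these libraries, and the same letters occur in collagens that were higher, lower or not called after STM2457.

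In SK-N-BE2, STM2457 left the collagens divided. The fibrillar genes COL1A1, COL3A1 and COL27A1, the basement membrane genes COL4A1 and COL4A2, and COL6A6, COL14A1 and COL22A1 rose, while 6 of the 9 tested collagens that coat fibrils fell. Of the 44 genes, 31 had enough reads to be tested, 8 rose and 13 fell, where 26.9% of all genes tested rose and 27.8% fell (54.7% in all). The median log2 fold change of the 31 was -0.39, against -0.02 over all genes tested. Of the 24 collagens that are neither fibrillar nor network, 21 were tested, 3 rose and 11 fell.

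In NGP the collagens moved mostly upward. Of 32 tested, 13 rose and 4 fell, where 19.4% of all genes tested rose and 22.2% fell (41.7% in all), and the median was 0.31 against -0.03 over all genes. All 5 called fibrillar genes rose, led by COL3A1, and the called genes that fell were COL4A3, COL4A4, COL16A1 and COL21A1. In NGP without the DMSO library of replicate 1, 20 collagens were called, 14 higher and 6 lower, and COL6A3, COL9A2 and COL19A1 joined the calls. The filter on low counts passes a gene that is high in only one of the groups, so these counts describe the members and are not evidence about them.

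Among the 26 collagens tested in both lines, 12 were called in both. Of these, 6 rose in both (COL1A1, COL3A1, COL4A1, COL4A2, COL6A6 and COL22A1), 3 fell in both (COL4A4, COL16A1 and COL21A1) and 3 fell in SK-N-BE2 but rose in NGP (COL5A2, COL6A5 and COL18A1). Over all genes tested in both lines, 21.3% were called with the same sign and 4.96% with opposite signs. With 1 library left out at a time, 10 to 14 collagens were called in both lines instead of 12.

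**Figure D1:**
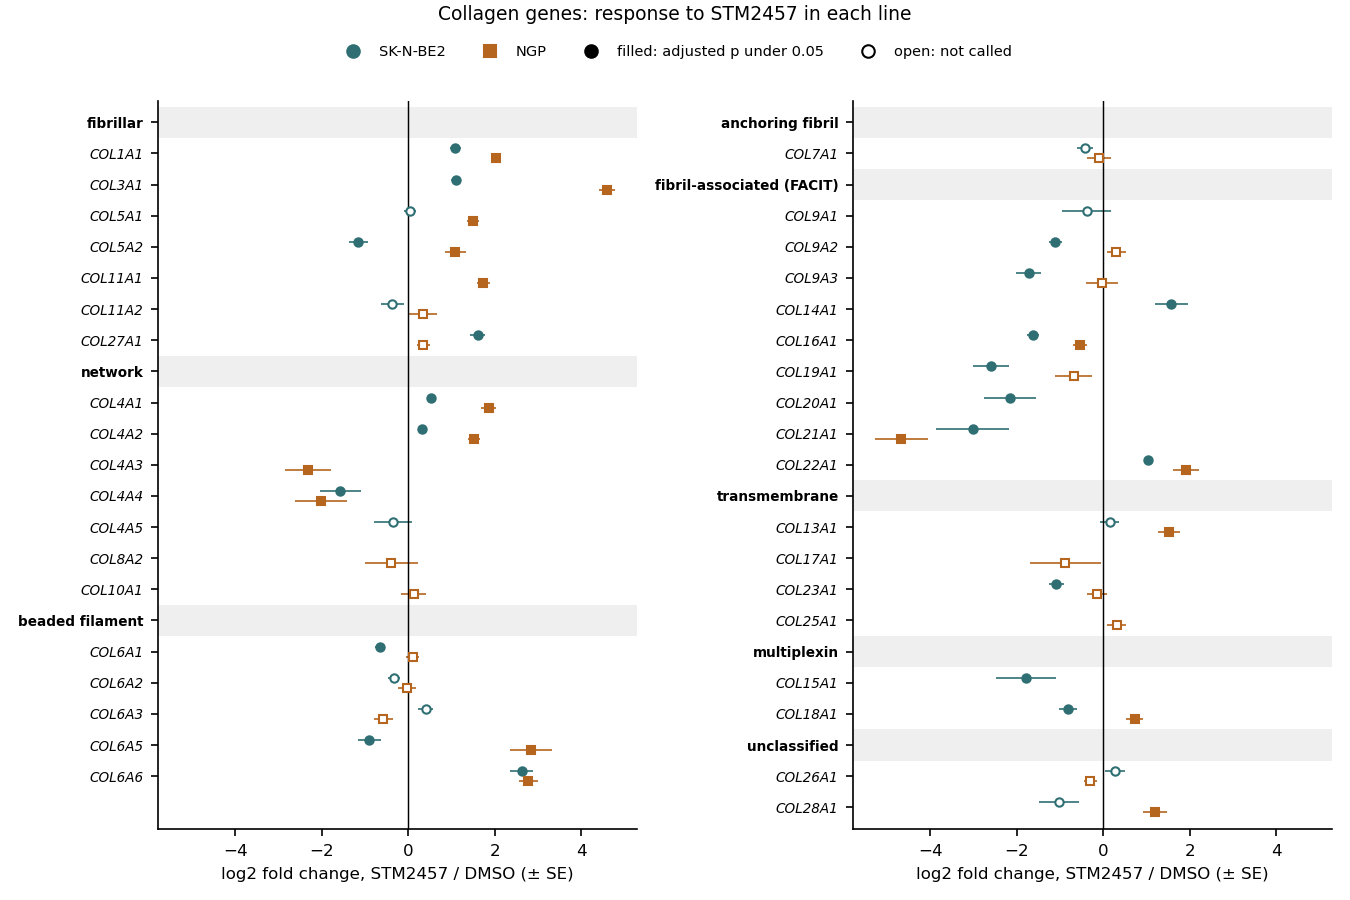
Log2 fold change after STM2457 (± SE) of every collagen tested, by class, in SK-N-BE2 (circles) and NGP (squares); filled symbols have an adjusted p under 0.05. COL3A1 in NGP lies farthest to the right at 4.59, COL21A1 in NGP farthest to the left at -4.67, and 13 NGP symbols against 8 SK-N-BE2 symbols are filled to the right of 0.

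Summed over the 44 genes, collagen reads took 459.7, 375 and 503 CPM in the SK-N-BE2 DMSO libraries and 577, 546 and 588 CPM with STM2457. In NGP the sums were 929.6, 775 and 858 CPM and 1489, 1705 and 1402 CPM. In both lines every STM2457 library lay above every DMSO library, with ratios of the means of 1.28 and 1.79. Without COL22A1 the SK-N-BE2 groups overlapped, with a ratio of 1.06. Summed per length, as RPKM, the SK-N-BE2 groups also overlapped (60.1 ± 9.71 and 70.0 ± 3.33 RPKM; SD, n = 3). In NGP the CPM ratio without COL3A1 was 1.58 and the libraries still did not overlap.

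The class sums moved differently. Fibrillar reads went from 60.8 ± 10.6 to 108 ± 5.77 CPM in SK-N-BE2 and from 71.6 ± 2.77 to 406 ± 41.7 CPM in NGP (SD, n = 3). That is a ratio of 1.78 in the first line and 5.67 in the second, or 3.31 in NGP without COL3A1. Network reads went from 97.1 ± 9.70 to 131 ± 0.822 CPM and from 151 ± 9.09 to 455 ± 69.3 CPM. Libraries of the groups did not overlap in either class or line. Beaded filament reads overlapped between the groups in both lines, at 132 ± 25.3 and 101 ± 7.69 CPM in SK-N-BE2 and 376 ± 42.5 and 421 ± 76.7 CPM in NGP. Summed as RPKM, this class was lower with STM2457 in SK-N-BE2 without overlap (24.0 ± 4.74 and 17.7 ± 1.51 RPKM). The fibril-associated class, known as FACIT, took 132 ± 17.4 and 214 ± 7.52 CPM in SK-N-BE2, but without COL22A1 its sum was 38.1 ± 6.78 and 15.8 ± 0.801 CPM, with no overlap in the opposite direction. In NGP the FACIT sums of 176 ± 38.5 and 139 ± 14 CPM overlapped.

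**Figure D2:**
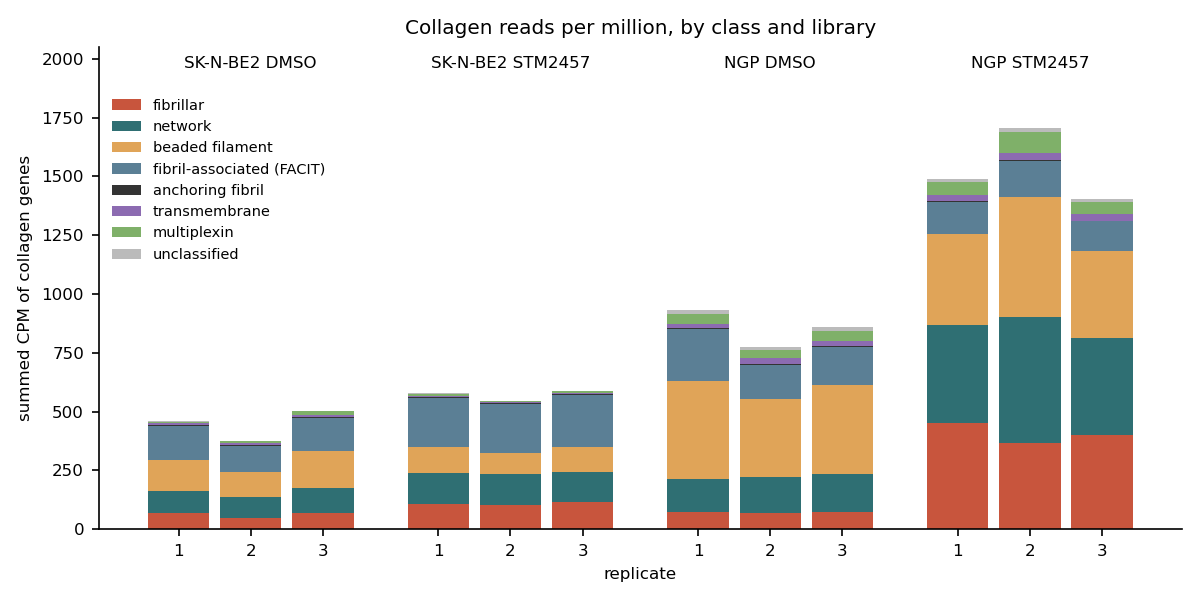
Stacked bars give the summed CPM of the collagen genes in each of the 12 libraries, coloured by class. The NGP STM2457 libraries stand highest, between 1402 and 1705 CPM, with more fibrillar and network reads than the NGP DMSO libraries. The beaded filament reads, in CPM, overlap between the NGP groups.

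Collagens with a group mean of at least 1 CPM numbered 22 in SK-N-BE2 under either treatment, 26 in NGP with DMSO and 27 in NGP with STM2457. Per length of exon (RPKM, CPM per kb), the highest collagen with DMSO was COL6A1 in both lines, at 13.7 ± 2.84 RPKM in SK-N-BE2 and 41.0 ± 4.09 RPKM in NGP (SD, n = 3). In SK-N-BE2 it was followed by COL22A1 (11.9 ± 1.44 RPKM) and COL6A2 (9.70 ± 2.00 RPKM), and neighbours in that order overlapped between libraries. In NGP it was followed by COL6A2 (25.2 ± 5.29 RPKM) and COL16A1 (15.4 ± 3.54 RPKM), with no overlap between neighbours. With STM2457 the order changed in both lines. COL22A1 led in SK-N-BE2 at 25.2 ± 0.855 RPKM, clear of COL6A1 at 8.93 ± 0.228 and COL3A1 at 8.81 ± 0.581 RPKM, which overlapped. COL3A1 was second in NGP at 28.8 ± 5.64 RPKM, below COL6A1 at 45.0 ± 9.18 RPKM and overlapping COL6A2 at 25.1 ± 6.25 RPKM.

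Among the fibrillar collagens, COL3A1 (chr2:188974373-189012746, plus strand) encodes the single chain of type III collagen, found with type I in extensible tissue. In NGP it was at 8.26, 6.83 and 8.77 CPM with DMSO against 233, 156 and 196 CPM after STM2457, and in SK-N-BE2 at 29.4, 21.5 and 29.9 CPM with DMSO against 59.6, 55.6 and 63.5 CPM after STM2457. In both lines all STM2457 libraries lay above all DMSO libraries, and NGP went from the lower to the higher of the lines. Over all genes tested, the groups were free of overlap in 62.2% for SK-N-BE2 and in 54.7% for NGP. The log2 fold change was 4.59 ± 0.19 (SE) with an adjusted p of 2.61e-06 in NGP, and 1.11 ± 0.12 (SE) with an adjusted p of 4.73e-06 in SK-N-BE2. COL1A1 (chr17:50183289-50201632, minus strand) encodes the major chain of type I collagen. Its libraries were at 33.5, 26.7 and 29.1 CPM with DMSO against 129.6, 123 and 120.1 CPM after STM2457 in NGP and at 9.88, 6.78 and 8.59 CPM with DMSO against 18.4, 17.9 and 18.8 CPM after STM2457 in SK-N-BE2. Again no libraries overlapped, and the log2 fold changes were 2.04 (SE 0.11, adjusted p = 9.71e-06) in NGP and 1.09 (SE 0.13, adjusted p = 1.37e-05) in SK-N-BE2. Per length, COL3A1 was at 4.66 ± 0.370 times COL1A1 in SK-N-BE2 with DMSO and 4.71 ± 0.201 times with STM2457, a ratio that overlapped between the groups. In NGP the same ratio was 0.389 ± 0.0425 with DMSO and 2.27 ± 0.388 with STM2457.

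COL1A2, the partner chain that joins COL1A1 in ordinary type I collagen, was almost absent. Its 3 libraries together held 2 and 4 reads in SK-N-BE2 and 9 and 6 reads in NGP, with DMSO and STM2457 respectively, so it was not tested. COL1A1 had 1351, 2900, 4548 and 17906 reads in the same groups. Per length, the mean RPKM of COL1A1 was 561 to 3284 times that of COL1A2 across the groups, a ratio that rests on the few reads of COL1A2.

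Type V collagen nucleates type I fibrils, and its chains separated. COL5A1 was at 12.6, 10.6 and 13.6 CPM with DMSO against 33.9, 38.5 and 33 CPM after STM2457 in NGP and at 17.8, 13.4 and 20.3 CPM with DMSO against 18.3, 17.3 and 18.9 CPM after STM2457 in SK-N-BE2. It rose in NGP by 1.5 (SE 0.13, adjusted p = 8.15e-05) on the log2 scale, while the SK-N-BE2 libraries overlapped (0.04, SE 0.13, adjusted p = 0.803). COL5A2 was at 2.14, 4.25 and 4.12 CPM with DMSO against 7.88, 7.45 and 7.46 CPM after STM2457 in NGP and at 2.75, 2.74 and 2.56 CPM with DMSO against 1.22, 1.41 and 1.07 CPM after STM2457 in SK-N-BE2. It rose in NGP (1.09, SE 0.25, adjusted p = 0.00905) and fell in SK-N-BE2 (-1.16, SE 0.22, adjusted p = 0.00057), without overlap in either line. The RPKM ratio of COL5A1 to COL5A2 in SK-N-BE2 was 4.22 ± 1.00 with DMSO and 9.84 ± 1.76 with STM2457. COL5A2 lies 19.2 kb from COL3A1 on the opposite strand, and in SK-N-BE2 these neighbours moved in opposite directions. COL5A3 had no reads in NGP and 14 and 5 reads in SK-N-BE2.

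COL11A1, a type XI chain of cartilage fibrils that tumour stroma also makes, was an NGP gene in these libraries. It was at 7.88, 11.2 and 9.92 CPM with DMSO against 34.9, 29.8 and 34.0 CPM after STM2457 in NGP and rose there by 1.74 (SE 0.16, adjusted p = 8.53e-05) on the log2 scale. In SK-N-BE2 no read was counted with DMSO and 6 reads were counted with STM2457. COL27A1, a cartilage fibrillar collagen, was the fibrillar gene that responded more in SK-N-BE2. It was at 3.32, 2.13 and 2.60 CPM with DMSO against 8.49, 7.83 and 9.02 CPM after STM2457 in SK-N-BE2, a rise of 1.61 (SE 0.17, adjusted p = 4.72e-06), and at 7.23, 7.88 and 6.59 CPM with DMSO against 10.0, 9.67 and 8.44 CPM after STM2457 in NGP. The NGP libraries did not overlap either, but the change there missed the threshold (0.35, SE 0.15, adjusted p = 0.0858), while DESeq2 called it (0.37, adjusted p = 0.0451). COL11A2 was at 2.51 and 1.99 CPM in SK-N-BE2 and 1.15 and 1.47 CPM in NGP and was called in neither line, but without SK-N-BE2 DMSO replicate 2 it was called lower in that line (-0.62, adjusted p = 0.0367). COL2A1 and COL24A1 stayed below 0.3 CPM in every library and were not tested in either line.

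**Figure D3:**
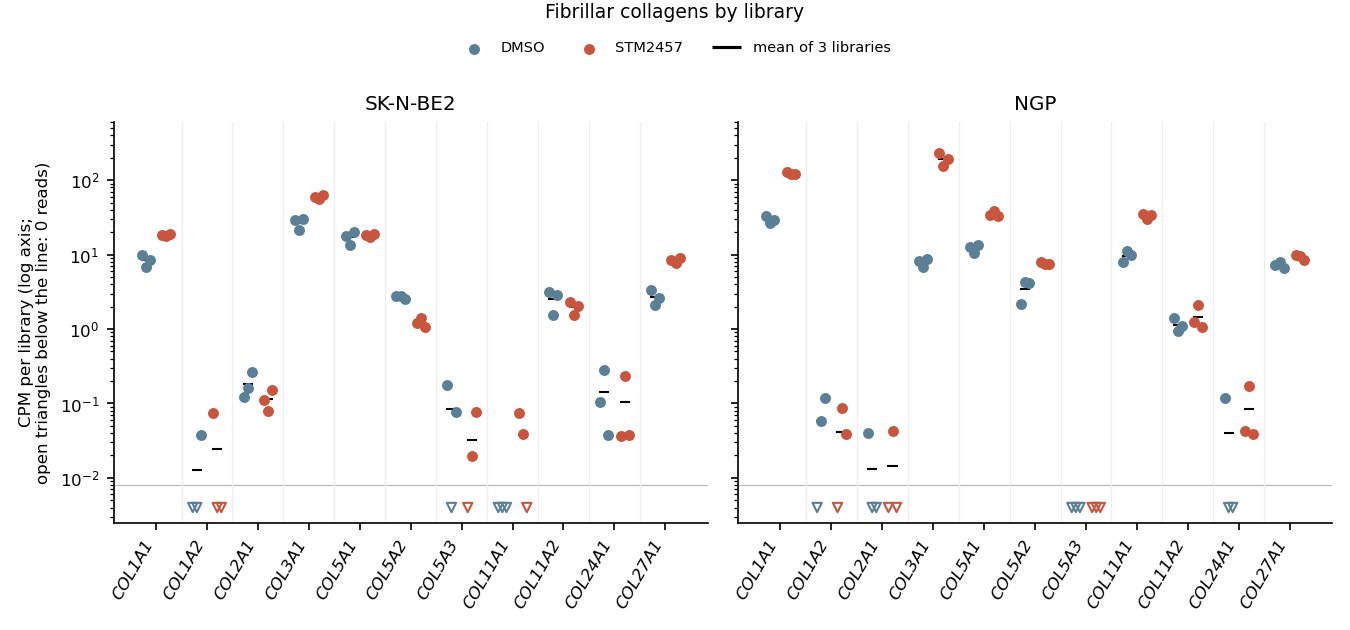
Points are the 11 fibrillar collagens in CPM per library on a log axis, with DMSO in blue, STM2457 in red, bars for the means of 3 libraries and open triangles for libraries with 0 reads. In NGP the red points of COL1A1, COL3A1, COL5A1, COL5A2 and COL11A1 all lie above the blue ones, in SK-N-BE2 those of COL5A2 lie below, and COL1A2 sits near 0 in both lines.

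The network collagens COL4A1 (chr13:110148963-110307157, minus strand) and COL4A2 (chr13:110305812-110513209, plus strand) together form the common type IV trimer of basement membranes and are transcribed in opposite directions from neighbouring start sites. Their RefSeq starts lie 127 bases apart. The bases between them that belong to no annotated exon, chr13:110307158-110307257 on the plus strand, are shown because both genes rose together. CCAAT and GGGCGG, each searched on both strands, are in capitals.
COL4A1-COL4A2: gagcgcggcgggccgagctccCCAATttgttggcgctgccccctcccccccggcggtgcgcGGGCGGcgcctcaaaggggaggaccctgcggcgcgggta
The 300-base promoter windows of both genes (250 bases before the start and 50 after) hold each string at least once. These windows overlap, and the CCAAT is the same site in both. Over 35116 windows of that length in the RefSeq table for GRCh38.p14, 45% hold GGGCGG and 34.6% hold CCAAT. Of the collagen windows, 54.5% hold GGGCGG and 31.8% hold CCAAT. Windows were found for 32 of the 44 collagens, and COL3A1 was not among them.

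COL4A1 was at 22.2, 34.5 and 33.4 CPM with DMSO against 103, 125 and 104 CPM after STM2457 in NGP and at 39.3, 33.9 and 38.9 CPM with DMSO against 53.8, 54.6 and 56.9 CPM after STM2457 in SK-N-BE2. COL4A2 was at 115, 113 and 122 CPM with DMSO against 309.6, 407 and 306 CPM after STM2457 in NGP and at 55.4, 51.8 and 66.7 CPM with DMSO against 76.8, 74.4 and 72.0 CPM after STM2457 in SK-N-BE2. For both genes and in both lines, the STM2457 libraries lay above the DMSO libraries. The log2 fold changes of COL4A1 were 1.86 (SE 0.18, adjusted p = 0.000126) in NGP and 0.52 (SE 0.09, adjusted p = 0.000221) in SK-N-BE2. Those of COL4A2 were 1.52 (SE 0.13, adjusted p = 6.08e-05) and 0.32 (SE 0.10, adjusted p = 0.0116). With offsets that remove each library's trend with exon length, the SK-N-BE2 value of COL4A2 was 0.19 (adjusted p = 0.128, edgeR) and no longer called. Per length, COL4A2 was at 1.18 ± 0.117 and 1.03 ± 0.0617 times COL4A1 in SK-N-BE2 and 3.07 ± 0.782 and 2.34 ± 0.127 times in NGP, with DMSO and STM2457. The ratio overlapped between treatments in SK-N-BE2 and was higher in every NGP library than in any SK-N-BE2 library. In NGP the groups barely parted, at 2.484 to 3.96 with DMSO and 2.25 to 2.481 with STM2457. Among the NGP DMSO libraries, COL4A1 was lowest, at 22.2 CPM, in replicate 1, the library that stood apart.

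COL4A3 and COL4A4, which are 2 of the chains of the kidney and lung type IV trimer and also a head-to-head pair, went the other way. COL4A4 was at 1.55, 0.704 and 1.42 CPM with DMSO against 0.149, 0.128 and 0.631 CPM after STM2457 in NGP and fell by 2.01 on the log2 scale (SE 0.60, adjusted p = 0.0271). In SK-N-BE2 it was at 0.497 and 0.170 CPM and fell by 1.57 (adjusted p = 0.0141). COL4A3 had 48 and 9 reads in NGP and fell there by 2.31 (adjusted p = 0.00846), and 34 and 9 reads in SK-N-BE2, too few to test. The COL4A4 call was lost without the NGP DMSO library of replicate 3 or without the NGP STM2457 library of replicate 1 or 2 (adjusted p = 0.0803 to 0.0906), and in SK-N-BE2 without the STM2457 library of replicate 2 (0.0696) or in the joint fit of the 12 libraries (0.0537). COL4A5 had 99 and 80 reads in SK-N-BE2, with no call, and none in NGP. COL10A1, the hypertrophic cartilage collagen, was at 2.48 and 2.76 CPM in NGP with no call (0.13, adjusted p = 0.753), and COL4A6, COL8A1 and COL8A2 stayed below 1 CPM in every library.

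Type VI collagen forms beaded filaments around cells from COL6A1, COL6A2 and one further chain, which is COL6A3 or its relative COL6A5 or COL6A6. COL6A1 (chr21:45981769-46005050, plus strand) was at 74.5, 56.9 and 86.8 CPM with DMSO against 48.2, 46.0 and 48.0 CPM after STM2457 in SK-N-BE2, where it fell (-0.65, SE 0.12, adjusted p = 0.000541). In NGP it was at 235, 193 and 225 CPM with DMSO against 215, 295 and 207 CPM after STM2457, where the groups overlapped (0.11, SE 0.15, adjusted p = 0.586). COL6A2 overlapped between the groups in both lines, at 51.7 ± 10.7 and 42.2 ± 7.28 CPM in SK-N-BE2 and 134 ± 28.2 and 134 ± 33.4 CPM in NGP (SD, n = 3). It was called in neither line, with log2 values of -0.33 and -0.03, but it was called lower in SK-N-BE2 under 5 alternatives: upper-quartile factors, no filter, the replicate block, without DMSO replicate 2 and without STM2457 replicate 1 (adjusted p = 0.017 to 0.0472). COL6A3 was at 4.84, 3.32 and 4.38 CPM with DMSO against 4.84, 5.76 and 6.42 CPM after STM2457 in SK-N-BE2 and at 13.4, 24.2 and 19.5 CPM with DMSO against 14.8, 11.5 and 12.6 CPM after STM2457 in NGP. It was called in neither (0.40, SE 0.18, adjusted p = 0.0696 for SK-N-BE2 and -0.58, SE 0.22, adjusted p = 0.0608 for NGP). Alternatives called COL6A3 lower in NGP: the joint fit (-0.55, adjusted p = 0.038), DESeq2 (-0.56, 0.0366) and exon length offsets (-0.61, 0.00641). The same held without the NGP DMSO library of replicate 1, which was the lowest of its group (-0.78, adjusted p = 0.00106). In SK-N-BE2 it was called higher without DMSO replicate 1 (0.52, adjusted p = 0.036) or STM2457 replicate 1 (0.51, 0.0479).

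COL6A5 and COL6A6 rose in NGP. COL6A6 was at 0.962, 0.584 and 0.535 CPM with DMSO against 3.55, 4.47 and 5.22 CPM after STM2457 in SK-N-BE2 and at 3.22, 5.52 and 5.37 CPM with DMSO against 36.1, 28.4 and 34.1 CPM after STM2457 in NGP. It rose by 2.62 (SE 0.26, adjusted p = 3.02e-06) in SK-N-BE2 and by 2.78 (SE 0.22, adjusted p = 4.56e-05) in NGP, with no overlap in either line. In NGP with STM2457 it stood at 3.38 ± 0.413 RPKM, against 0.667 ± 0.0870 RPKM for COL6A3 (SD, n = 3). COL6A5 lies beside COL6A6 on chromosome 3 and was at 2.34, 3.66 and 2.12 CPM with DMSO against 1.18, 1.72 and 1.58 CPM after STM2457 in SK-N-BE2 and at 0.218, 0.117 and 0.486 CPM with DMSO against 2.61, 1.39 and 2.03 CPM after STM2457 in NGP. It fell in SK-N-BE2 (-0.90, SE 0.26, adjusted p = 0.0107) and rose in NGP (2.84, SE 0.49, adjusted p = 0.0022). The SK-N-BE2 call of COL6A5 was lost without the DMSO library of replicate 2 or the STM2457 library of replicate 1 (adjusted p = 0.0551 and 0.0504) and in the joint fit (0.0668).

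Fibril-associated collagens bind to the surface of fibrils and carry other domains outward. In SK-N-BE2, 9 of 10 were tested, 2 rose and 6 fell, where 26.9% of all genes tested rose and 27.8% fell. In NGP 6 were tested, 1 rose and 2 fell, where 19.4% of all genes tested rose and 22.2% fell. COL22A1, a collagen of tissue junctions, was at 103, 81.2 and 97.6 CPM with DMSO against 196, 193 and 206 CPM after STM2457 in SK-N-BE2 and at 1.03, 0.509 and 0.992 CPM with DMSO against 3.42, 2.72 and 3.51 CPM after STM2457 in NGP. It rose by 1.04 (SE 0.09, adjusted p = 1.07e-06) in the first line and by 1.90 (SE 0.30, adjusted p = 0.00146) in the second, with no overlap in either. COL16A1, which joins fibrils and cell surfaces, fell in both lines. It was at 9.11, 11.5 and 11.9 CPM with DMSO against 3.67, 3.46 and 3.73 CPM after STM2457 in SK-N-BE2 (-1.62, SE 0.14, adjusted p = 1.06e-06) and at 179.6, 118 and 129.9 CPM with DMSO against 97.4, 111 and 91.7 CPM after STM2457 in NGP (-0.54, SE 0.16, adjusted p = 0.0272). Leaving out any of the 3 STM2457 libraries removed the NGP call (adjusted p = 0.0527 to 0.102).

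COL9A2 and COL9A3, chains of the type IX collagen that coats cartilage fibrils, fell in SK-N-BE2. COL9A2 was at 21.5, 14.7 and 23.2 CPM with DMSO against 9.27, 8.93 and 10.1 CPM after STM2457 in SK-N-BE2, a log2 change of -1.11 (SE 0.15, adjusted p = 3.91e-05). COL9A3 was at 4.39, 2.31 and 5.43 CPM with DMSO against 1.37, 1.03 and 1.35 CPM after STM2457, a change of -1.73 (SE 0.29, adjusted p = 0.00021). In neither case did the groups overlap. In NGP they were not called: COL9A2 was at 32.8, 18.5 and 22.2 CPM with DMSO against 29.6, 35.1 and 27.2 CPM after STM2457, and COL9A3 at 2.62, 1.39 and 1.42 CPM with DMSO against 2.14, 2.20 and 1.06 CPM after STM2457, with overlap in both. Without the NGP DMSO library of replicate 1, the highest of its group for both genes, COL9A2 was higher with STM2457 in NGP (0.56, adjusted p = 0.00409). COL9A1 had at most 36 reads in any group and no call.

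COL19A1 fell in SK-N-BE2, where it was at 3.04, 1.27 and 1.91 CPM with DMSO against 0.314, 0.547 and 0.190 CPM after STM2457 (-2.60, SE 0.42, adjusted p = 0.000155). In NGP it was at 1.81, 7.63 and 5.60 CPM with DMSO against 3.29, 3.40 and 2.82 CPM after STM2457, overlapping through the DMSO library of replicate 1 (-0.69, SE 0.43, adjusted p = 0.235), and without that library it was called lower (-1.09, adjusted p = 0.000921). COL21A1 fell to near 0 in both lines. It was at 1.23, 0.939 and 1.13 CPM with DMSO against 0.0854, 0 and 0.0394 CPM after STM2457 in NGP, where 168 reads became 6 (log2 -4.67, SE 0.61, adjusted p = 0.000571), and 59 reads became 7 in SK-N-BE2 (-3.02, SE 0.84, adjusted p = 0.00764). COL14A1 rose in SK-N-BE2 from 40 to 121 reads (1.57, SE 0.38, adjusted p = 0.00322) and COL20A1 fell from 76 to 17 reads (-2.16, SE 0.59, adjusted p = 0.00734). Both were too low to test in NGP, as was COL12A1 in either line, with at most 10 reads in a group.

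Of the transmembrane collagens, which shed their outer part from the cell surface, COL13A1 rose in NGP and COL23A1 fell in SK-N-BE2. COL13A1 was at 1.33, 0.861 and 1.46 CPM with DMSO against 3.25, 4.28 and 3.08 CPM after STM2457 in NGP (1.51, SE 0.26, adjusted p = 0.0024) and at 1.85, 1.73 and 2.18 CPM with DMSO against 2.48, 1.84 and 2.19 CPM after STM2457 in SK-N-BE2 (0.14, SE 0.22, adjusted p = 0.623). COL23A1 was at 5.45, 4.99 and 6.41 CPM with DMSO against 2.97, 2.36 and 2.76 CPM after STM2457 in SK-N-BE2 (-1.09, SE 0.17, adjusted p = 0.000127) and at 2.70, 2.15 and 2.29 CPM with DMSO against 2.03, 2.72 and 1.85 CPM after STM2457 in NGP (-0.14, SE 0.23, adjusted p = 0.655). Only the NGP groups of COL13A1 and the SK-N-BE2 groups of COL23A1 were free of overlap. COL25A1, the collagen of amyloid plaques and of motor nerve contacts, was at 17.7 ± 5.51 and 22.4 ± 0.713 CPM in NGP with no call (SD, n = 3), and COL17A1 was low and not called.

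The multiplexins COL15A1 and COL18A1 belong to basement membranes, and COL18A1 is the source of endostatin. COL18A1 was at 7.87, 7.39 and 13.9 CPM with DMSO against 6.21, 4.86 and 5.96 CPM after STM2457 in SK-N-BE2, where it fell (-0.81, SE 0.21, adjusted p = 0.00538). In NGP it was at 42.6, 34.5 and 42.8 CPM with DMSO against 57.5, 90.7 and 52.8 CPM after STM2457, where it rose (0.72, SE 0.20, adjusted p = 0.0211), a call lost without the DMSO library of replicate 2 or 3 (adjusted p = 0.0546 and 0.0505). Of its exon length 18.5% is shared with SLC19A1 on the other strand, and since counting used no strand its values are uncertain. COL15A1 fell in SK-N-BE2 from 62 to 18 reads (-1.79, SE 0.69, adjusted p = 0.04), a call lost without any single library but the STM2457 one of replicate 2 (adjusted p = 0.0549 to 0.156), with no filter (0.0641), with a replicate block (0.055) and in the joint fit (0.0779). COL28A1 was at 0.496, 0.587 and 0.681 CPM with DMSO against 1.22, 1.37 and 1.56 CPM after STM2457 in NGP, where it rose (1.20, SE 0.28, adjusted p = 0.00987), and at 0.516 and 0.258 CPM in SK-N-BE2 with no call. COL7A1, which forms the anchoring fibrils of skin, and COL26A1 were called in neither line. The log2 values of COL7A1 were -0.43 and -0.10, and those of COL26A1 0.26 and -0.30, SK-N-BE2 first. COL7A1 was called lower in SK-N-BE2 with upper-quartile factors (adjusted p = 0.0494), with exon length offsets (0.0248) and without DMSO replicate 2 (0.0349) or STM2457 replicate 3 (0.0337).

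Not every member could be tested. In SK-N-BE2, 13 collagens were below the filter, with group means of at most 0.283 CPM, and in NGP 12, with at most 0.118 CPM. COL1A2, COL2A1, COL5A3, COL24A1, COL4A6, COL8A1 and COL12A1 were tested in no comparison. In each library 3 reads corresponded to 0.0525 to 0.0642 CPM.

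The response itself was compared between the lines by a contrast of the treatment effects over all 12 libraries. The collagens responded lower in SK-N-BE2 than in NGP far more often than higher. Of 37 tested, the difference (SK-N-BE2 minus NGP) was called positive in 2 and called negative in 17. Of all genes tested, 17.0% were called positive and 13.9% called negative (30.9% in all). The median difference was -0.94, against 0.02 over all genes tested. The genes called positive were COL27A1 (1.28, SE 0.23, adjusted p = 0.000903) and COL6A3 (0.99, SE 0.29, adjusted p = 0.02).

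Among the called genes, COL6A5 (-3.72, SE 0.56, adjusted p = 0.000239) and COL3A1 (-3.47, SE 0.22, adjusted p = 2.19e-07) differed most in the negative direction. They were followed by COL5A2 (-2.24, SE 0.33, adjusted p = 0.000188) and COL28A1 (-2.22, SE 0.52, adjusted p = 0.0054). By class, the difference was called negative in 4 and positive in 1 of 7 fibrillar genes and negative in 2 of 7 network genes. It was called negative in 11 and positive in 1 of the 23 other collagens tested. Over all genes tested, it was called positive in 17.0% and negative in 13.9%. COL1A1 rose in both lines but less in SK-N-BE2 (-0.94, SE 0.17, adjusted p = 0.00114), as did COL4A1 (-1.32), COL4A2 (-1.19) and COL22A1 (-0.85). For COL6A6 the responses were not called different (-0.15, SE 0.35, adjusted p = 0.792). The difference of COL19A1 (-1.91, adjusted p = 0.0474) lost its call with a replicate block (0.0524) and when any library was left out other than SK-N-BE2 DMSO replicate 2, SK-N-BE2 STM2457 replicate 2 and NGP DMSO replicates 1 and 2 (0.0626 to 0.122). The call of COL9A3 was lost without SK-N-BE2 DMSO replicate 3, SK-N-BE2 STM2457 replicate 2, NGP DMSO replicate 3 or NGP STM2457 replicate 1 or 2 (0.0552 to 0.0588). That of COL6A3 was lost without SK-N-BE2 DMSO replicate 2 or STM2457 replicate 3 (0.0616 and 0.0548) and with the block (0.055). That of COL23A1 was lost without STM2457 replicate 2 of SK-N-BE2 or of NGP (0.0544 and 0.0578), and that of COL22A1 without NGP STM2457 replicate 3 (0.0509). The dose was 12 times higher in SK-N-BE2, so the difference is between lines as treated.

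Without drug the lines already differed in most collagens, as they did in most genes tested. In the comparison of DMSO libraries, 29 of 37 tested were called, 12 higher and 17 lower in SK-N-BE2, where 35.7% of all genes were higher and 35.4% lower (71.1% in all). The median was -0.52, against 0.00 over all genes. Libraries of the lines were free of overlap in 68.9% of all genes tested. Most type VI genes were lower in SK-N-BE2: COL6A1 by 1.58 on the log2 scale, COL6A2 by 1.38, COL6A3 by 2.18 and COL6A6 by 2.75, while COL6A5 was higher by 3.29.

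The widest gaps were in genes that one of the lines hardly expressed. COL22A1 was at 93.8 ± 11.3 CPM in SK-N-BE2 and 0.844 ± 0.291 CPM in NGP (SD, n = 3; log2 6.79, SE 0.20, adjusted p = 1.58e-12). COL25A1 was at 17.7 ± 5.51 CPM in NGP, with 5 reads in SK-N-BE2 over 3 libraries (log2 -9.03, SE 0.37, adjusted p = 3.19e-11). COL11A1 had 1479 reads in NGP and none in SK-N-BE2, at least 513-fold lower against a floor of 3 reads over the group. In the other direction COL4A5 was at least 32.5-fold, COL15A1 at least 19.9-fold and COL14A1 at least 12.8-fold higher in SK-N-BE2, each with no read in NGP. COL16A1 was lower in SK-N-BE2 by 3.72, COL10A1 by 4.59, COL26A1 by 2.80 and COL18A1 by 2.04 on the log2 scale.

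Among the fibrillar genes, COL3A1 was higher in SK-N-BE2 (1.76, SE 0.16, adjusted p = 2.04e-07) and COL1A1 lower (-1.82, SE 0.13, adjusted p = 1.1e-08), as was COL27A1 (-1.43, SE 0.17, adjusted p = 2.88e-06). COL5A1 and COL11A2 were higher by 0.49 and 1.13, and COL5A2 was not called (-0.39, adjusted p = 0.142). Without the NGP DMSO library of replicate 1 it was lower in SK-N-BE2 (-0.62, adjusted p = 0.0045). COL4A2 was lower in SK-N-BE2 (-1.01, SE 0.12, adjusted p = 2.9e-06), whereas COL4A1 was not called (0.32, SE 0.14, adjusted p = 0.0619) and was called higher under 8 alternatives, with values of 0.34 to 0.48.

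**Figure D4:**
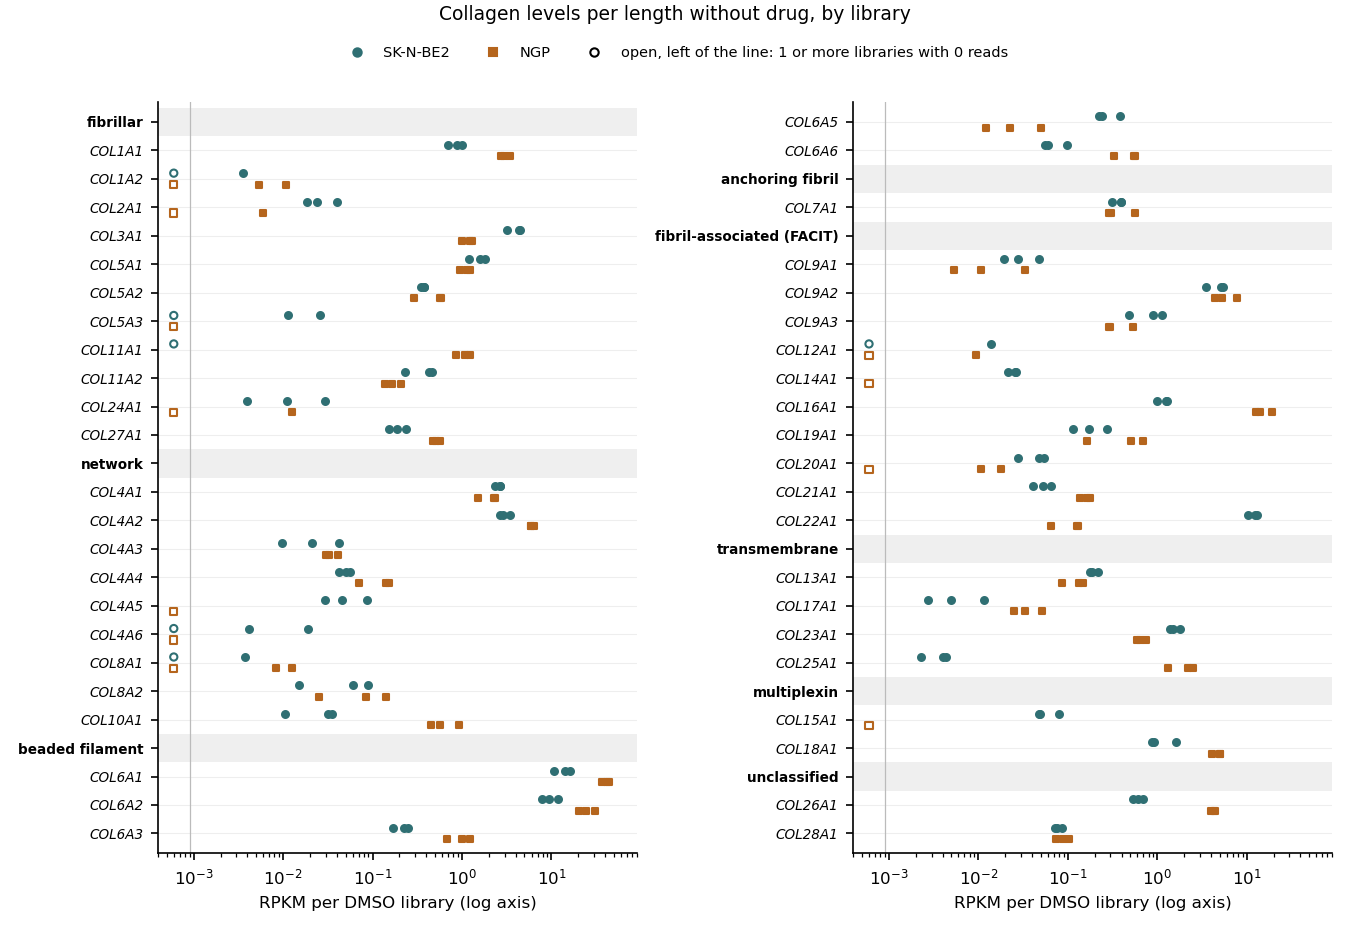
Points are the RPKM of every collagen in each DMSO library on a log axis, with SK-N-BE2 as circles and NGP as squares, by class; open symbols left of the line mark genes with 0 reads in at least 1 library. The COL22A1 circles lie far to the right of the squares, the squares of COL11A1, COL25A1 and COL16A1 far to the right of the circles, and the lines overlap in COL7A1, COL9A2 and COL28A1.

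Genes that make, cross-link, bind or break down collagen were drawn from a list of 80, ordered by role. In SK-N-BE2 66 were tested, 24 rose and 19 fell, where 26.9% of all genes tested rose and 27.8% fell. In NGP 61 were tested, 26 rose and 12 fell, where 19.4% rose and 22.2% fell. The counts of the single roles stand against these same shares. The medians were 0.05 and 0.29, against -0.02 and -0.03 over all genes. Among 14 genes that hydroxylate or glycosylate the chains, 4 rose and 2 fell in SK-N-BE2, and 5 rose and 3 fell in NGP. P4HA2, a catalytic subunit of prolyl 4-hydroxylase, fell from 36.8, 49.2 and 34.9 to 10.9, 12.1 and 10.4 CPM in SK-N-BE2 and from 42.5, 57.5 and 48.0 to 8.27, 8.11 and 6.80 CPM in NGP. The groups did not overlap, and the log2 changes were -1.89 (SE 0.13, adjusted p = 1.31e-07) and -2.70 (SE 0.16, adjusted p = 1.06e-05). Its paralogue P4HA1 rose in SK-N-BE2 (0.64), COLGALT1, which adds galactose, rose there and in NGP (0.79 and 0.37), and in NGP the 3-hydroxylase P3H1 rose (0.81) and COLGALT2 fell (-0.81).

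Of 12 genes for folding and export, 2 rose and 7 fell in SK-N-BE2, and 2 rose and 4 fell in NGP. SERPINH1, the collagen chaperone HSP47, fell in SK-N-BE2 (-0.69, SE 0.08, adjusted p = 1.69e-05), while NGP gave no call (0.08, adjusted p = 0.594). MIA3, the TANGO1 receptor that loads procollagen into carriers, fell in both lines (-0.54 and -0.75, SK-N-BE2 first), as did MIA2, which acts with it (-0.47 and -1.0). FKBP10, a prolyl isomerase for procollagen, rose by 0.81 in NGP and by 0.21 in SK-N-BE2. CREB3L1, a transcription factor that switches on type I collagen in bone, fell from 1.17 to 0.164 CPM in SK-N-BE2 and from 2.1 to 0.11 CPM in NGP (log2 -2.85, SE 0.38, adjusted p = 3.76e-05 in the former and -4.24, SE 0.59, adjusted p = 0.000813 in the latter).

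The proteases that trim procollagen ends included ADAMTS3, which rose in both lines, in SK-N-BE2 by 1.23 (SE 0.10, adjusted p = 5.67e-07) and in NGP by 2.86 (SE 0.24, adjusted p = 6.03e-05) on the log2 scale. Of this group of 11, 7 were tested in SK-N-BE2 with 5 higher and 1 lower, and 8 in NGP with 4 higher and 2 lower. BMP1 rose in both lines (0.51 and 0.65) and its relative TLL1 fell in NGP (-1.38). PCOLCE, the enhancer of BMP1, fell in SK-N-BE2 (-0.63) and rose in NGP (1.31), but 16.8% of its exon length is shared with an antisense RNA. Among the 5 cross-linking enzymes, LOX rose in NGP (0.67, SE 0.15, adjusted p = 0.00723), while in SK-N-BE2 LOXL2 rose (0.57) and LOXL1 and LOXL4 fell (-0.82 and -1.88).

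All 8 fibril-binding proteins tested in NGP rose, where 19.4% of all genes rose, and in SK-N-BE2 6 of 9 rose and 2 fell, where 26.9% and 27.8% did. FN1, the fibronectin on which collagen assembles, went from 15.8, 22.4 and 24.2 to 347, 271 and 323 CPM in NGP and from 33.2, 19.7 and 26.4 to 84.2, 84.6 and 94.9 CPM in SK-N-BE2. The changes were 3.89 (SE 0.19, adjusted p = 4.77e-06) and 1.70 (SE 0.14, adjusted p = 6.93e-07), with no overlap. The small proteoglycan DCN rose by 1.09 in SK-N-BE2 and by 3.32 in NGP, where it reached 1.62 CPM, LUM rose in both (0.75 and 1.89), and FMOD fell in SK-N-BE2 (-1.48) and rose in NGP (1.33). DCN and LUM also belong to the fibroblast marker list above.

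Of 10 collagen receptors, 8 were tested in SK-N-BE2 (2 rose, 2 fell) and 7 in NGP (1 rose, 2 fell). The integrin chain ITGA11 rose in both lines (0.57 and 1.52) and the receptor kinase DDR2 fell in both (-0.67 and -0.89). DDR1 fell in NGP (-0.82), and the uptake receptor MRC2 rose in SK-N-BE2 (0.70), with 10.3% of its exon length shared with another annotated gene. Of 16 genes of collagen breakdown, 11 were tested in SK-N-BE2 (4 rose, 3 fell) and 10 in NGP (5 rose, 1 fell). MMP14 rose in SK-N-BE2 (1.01), the gelatinase MMP2 and the metalloproteinase inhibitor TIMP1 rose in both lines, more in NGP (1.25 and 1.04) than in SK-N-BE2 (0.46 and 0.36), TIMP3 fell in both (-0.76 and -0.82), and the cathepsin CTSK fell in SK-N-BE2 (-0.79) and rose in NGP (1.39).

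**Figure D5:**
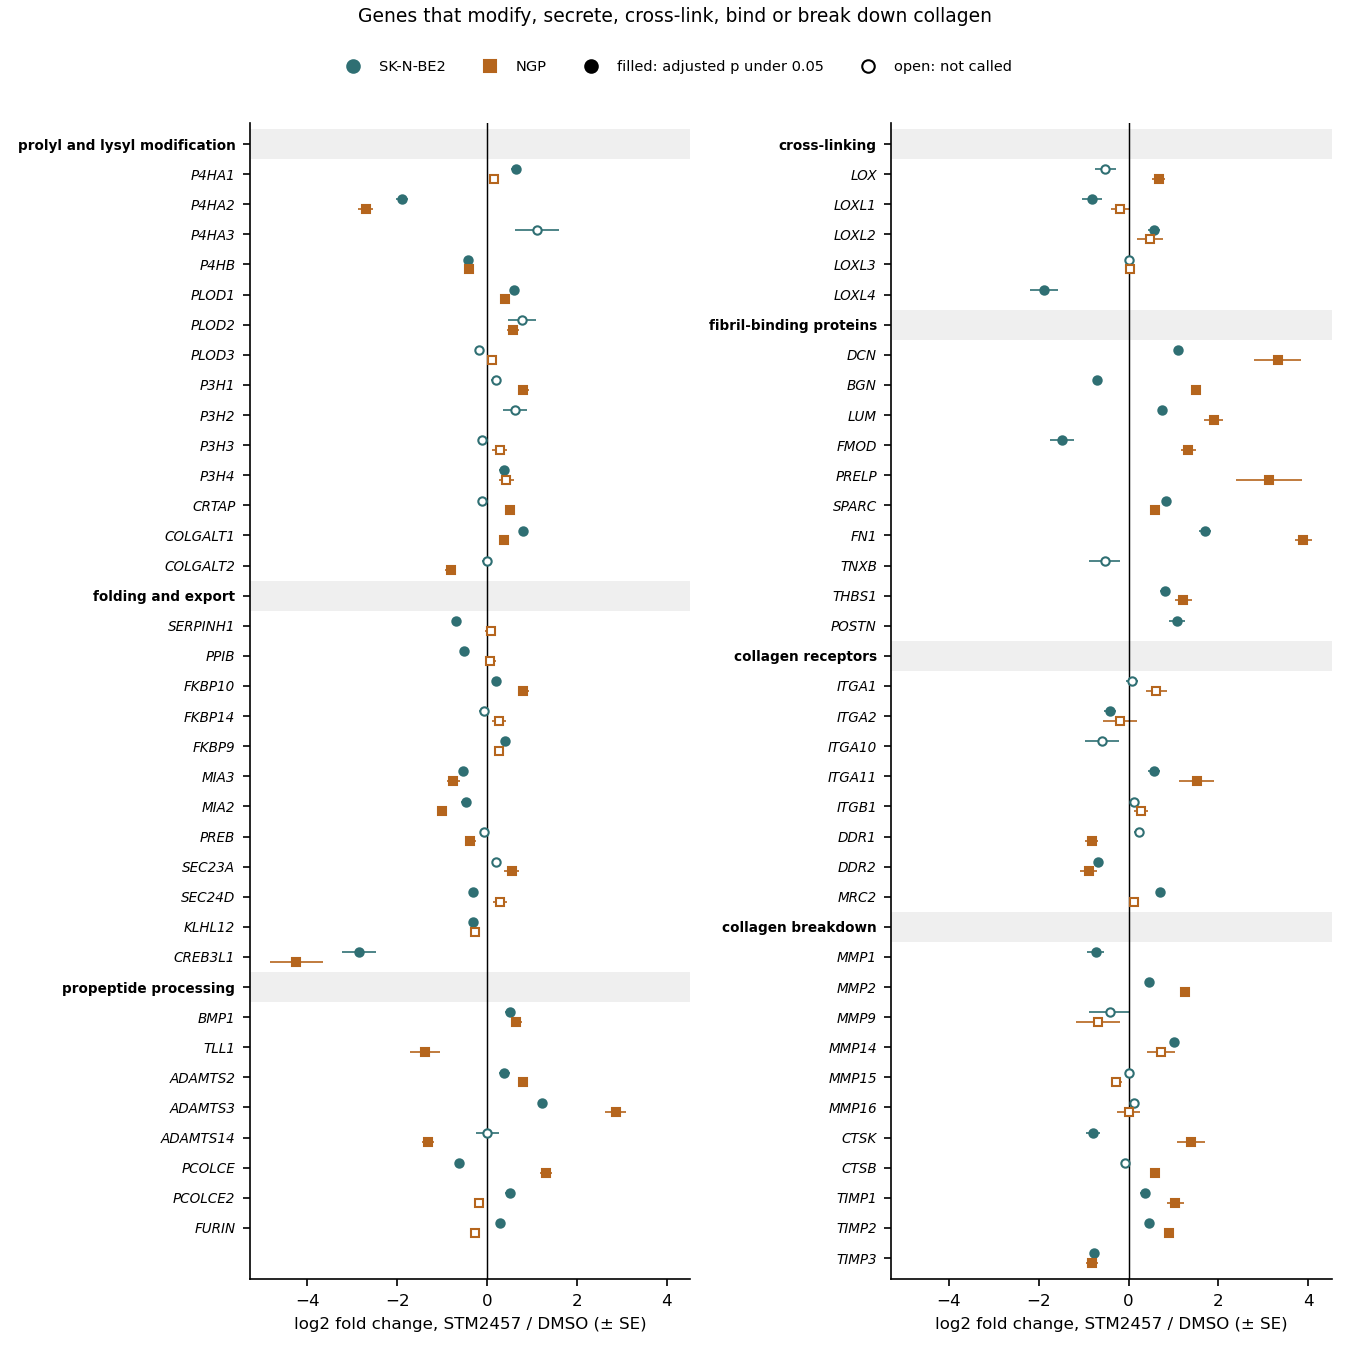
Log2 fold change after STM2457 (± SE) of the collagen-handling genes tested, by role, in SK-N-BE2 (circles) and NGP (squares); filled symbols have an adjusted p under 0.05. P4HA2 and CREB3L1 lie left of 0 in both lines, and FN1, DCN and ADAMTS3 lie right of 0 in both, farther in NGP.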

How the data were processed

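The 12 libraries of polyadenylated RNA were assigned to groups from their titles. The deposited values are read counts per gene, made by the authors with featureCounts 2.0.5 on exons of GENCODE 33 protein-coding genes, per the file headers, with no strand option and without counting read pairs, so a fragment can add 2 to a count. The submitters' processing notes name FastQC 0.11.5, Trimmomatic 0.36, HISAT2 2.1.0, Subread 1.5.3 and GRCh38. At low counts (1 to 20) 72.1% to 75.4% of values were even, against 49.3% to 51.0% above 1000, so counting intervals and floors, which cover counting error only, are too narrow.

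Each line was fitted on its own 6 libraries with edgeR 4.0.16 (R 4.3.3) over the whole table: the quasi-likelihood test after TMM scaling and filterByExpr with a minimum count of 10, Benjamini-Hochberg adjustment over all genes tested and a threshold of 0.05. The difference between responses and the DMSO comparison came from 4 group means over the 12 libraries. CPM is on the TMM scale of all libraries, and RPKM is CPM per kb of exon. Standard errors were derived from the fold change and its F statistic. Replicates are not said to be separate cultures, so p-values measure the spread between these libraries only.

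Members, classes and gene lists were chosen with earlier results of these data known. Every collagen is accounted for, and library values are given where a gene was called in that line or in the difference and reached 1 CPM. Of each pathway group, up to 3 called genes per line were named, and METTL3 as the drug target. Over 10% of shared exon length was treated as uncertain. Coding sequences and exon overlaps came from GENCODE 44, promoters from RefSeq, and of 160 entries in the gene lists 159 were found. Not every marker is reported here.

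Alternatives were leaving out each library, DESeq2 1.42.0, its size factors in edgeR, a filter at a mean of 1 CPM, no filter, upper-quartile factors, exon length offsets in 20 bins, counts halved, the replicate number as a block, a minimum absolute log2 fold change of 1, the joint fit, and the DMSO libraries alone. On simulated counts with 200 genes changed by a log2 fold of 1, the fits recovered 79.5% of the changed genes that were tested for SK-N-BE2 (14335 genes run), 80.8% for NGP (14276), 62.6% for the difference (14514) and 78.4% for DMSO (14521), with 7.74%, 6.59%, 6.87% and 4.88% of calls false.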

Additional observations from a re-analysis of the deposited data

Results flagged for a closer look

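The response to STM2457 differed between the lines, by the test of the difference itself (SK-N-BE2 minus NGP, log2, edgeR quasi-likelihood test over 12 libraries), in 19 collagens. These were 19 of 37 tested, where 30.9% of all genes tested were called. Among the fibrillar genes the differences were COL1A1 -0.94 (SE 0.17, adjusted p 0.00114), COL3A1 -3.47 (SE 0.22, adjusted p 2.19e-07), COL5A1 -1.44 (SE 0.20, adjusted p 0.000147), COL5A2 -2.24 (SE 0.33, adjusted p 0.000188) and COL27A1 1.28 (SE 0.23, adjusted p 0.000903). In the network class they were COL4A1 -1.32 (SE 0.20, adjusted p 0.00026) and COL4A2 -1.19 (SE 0.17, adjusted p 0.000134). In type VI they were COL6A1 -0.75 (SE 0.22, adjusted p 0.0171), COL6A3 0.99 (SE 0.29, adjusted p 0.02) and COL6A5 -3.72 (SE 0.56, adjusted p 0.000239). Among the remaining collagens they were COL9A2 -1.40 (SE 0.29, adjusted p 0.00222), COL9A3 -1.68 (SE 0.51, adjusted p 0.0229), COL16A1 -1.07 (SE 0.22, adjusted p 0.002), COL19A1 -1.91 (SE 0.68, adjusted p 0.0474), COL22A1 -0.85 (SE 0.25, adjusted p 0.0187), COL13A1 -1.36 (SE 0.34, adjusted p 0.00798), COL23A1 -0.94 (SE 0.28, adjusted p 0.0205), COL18A1 -1.52 (SE 0.34, adjusted p 0.00373) and COL28A1 -2.22 (SE 0.52, adjusted p 0.0054).

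On the list of 80 genes that handle collagen, 31 of 68 tested were called different, where 30.9% of all genes were. The genes named here were picked as called within a line with the largest changes, so their count is not a share of the list. They held a further 21 such differences. For chain modification they were P4HA2 0.82 (SE 0.21, adjusted p 0.00935), COLGALT1 0.44 (SE 0.11, adjusted p 0.00627), P4HA1 0.51 (SE 0.15, adjusted p 0.0224), COLGALT2 0.81 (SE 0.16, adjusted p 0.00142) and P3H1 -0.61 (SE 0.16, adjusted p 0.0123). For folding and export they were SERPINH1 -0.77 (SE 0.14, adjusted p 0.00118), MIA2 0.53 (SE 0.14, adjusted p 0.00923) and FKBP10 -0.59 (SE 0.15, adjusted p 0.00834), and for processing and cross-linking ADAMTS3 -1.62 (SE 0.24, adjusted p 0.000182), PCOLCE -1.93 (SE 0.18, adjusted p 3.9e-06), LOXL4 -2.62 (SE 0.79, adjusted p 0.0219) and LOX -1.18 (SE 0.22, adjusted p 0.00104). For fibril-binding proteins they were FN1 -2.18 (SE 0.25, adjusted p 2.68e-05), FMOD -2.81 (SE 0.32, adjusted p 2.19e-05), DCN -2.22 (SE 0.38, adjusted p 0.000655) and LUM -1.13 (SE 0.24, adjusted p 0.00279). For receptors and breakdown they were MRC2 0.58 (SE 0.15, adjusted p 0.0094), DDR1 1.08 (SE 0.19, adjusted p 0.000869), CTSK -2.16 (SE 0.31, adjusted p 0.000158), MMP2 -0.77 (SE 0.11, adjusted p 0.000141) and TIMP1 -0.67 (SE 0.23, adjusted p 0.0365). PCOLCE and MRC2 share over 10% of their exon length with other annotated RNAs, as COL18A1 does with SLC19A1.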

How the results depend on the processing

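Every change called for a described gene kept its direction under every alternative run, whereas some values that were not called, such as COL5A1 in SK-N-BE2, crossed 0, and the number of collagens called stayed within 1.5 times of the reported one except against a minimum absolute log2 fold change of 1. That test called 4 collagens in SK-N-BE2, 10 in NGP, 1 in both lines, 3 for the difference and 18 for the DMSO comparison, and METTL3, at 0.52 and 0.92, was no longer called. Leaving out 1 library at a time gave 20 to 22 collagens in SK-N-BE2, 15 to 20 in NGP, 10 to 14 in both lines, 17 to 19 for the difference and 23 to 29 for the DMSO comparison, and METTL3 changes of 0.48 to 0.56 and 0.85 to 0.98. Without the NGP DMSO library of replicate 1 the biological coefficient of variation of NGP fell from 0.155 to 0.0944.

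Over the single genes, the alternatives kept the side of the threshold in 897 values for SK-N-BE2, 953 for NGP, 1333 for the difference and 750 for DMSO, lost it in 64, 36, 68 and 37 and gained it in 18, 9, 8 and 10.

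Same-numbered replicates did not deviate together (correlations of -0.0737 to 0.0876), so the numbers are not taken to pair the samples. With the replicate number as a block, 21 collagens were called in SK-N-BE2, 17 in NGP, 12 in both lines, 17 for the difference and 28 for the DMSO comparison. Depth limits the members with a few reads, such as COL1A2, COL12A1 and COL15A1.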
